A study of Homo sapiens with 18 samples.

Results

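Cell surface proteins used to sort cancer stem cells were followed across the RNA-seq libraries: CD24, CD44, PROM1, KIT, THY1, ENG, MCAM, ALCAM, CD9 and NGFR. The set was defined by gene symbol alone, and its 10 members were all found among the 28277 genes of the count table. The cells were OVCAR3-KRAB, an ovarian cancer line with dCas9 fused to the KRAB repressor domain, carrying either the control guide sgCtl against Gal4 or 1 of 2 guides against the promoter of the long noncoding RNA XIST, sgXIST7 and sgXIST9. Every group therefore carried dCas9-KRAB and a guide. Each was kept in normoxia or for 24 h in a hypoxia chamber at 1% oxygen, with 3 replicates in each of the 6 groups. The cells were clonal, so the guide and the clone that carries it cannot be told apart. How many clones were sequenced for each guide is not stated, and a clone here means the cells of 1 guide.

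Markers of this kind act in adhesion and growth factor signaling and not as a single pathway. CD24 is a small GPI-anchored mucin-like protein, and CD44 is the receptor for hyaluronan; the mesenchymal type of ovarian cancer stem cell is commonly sorted as CD44 high and CD24 low. PROM1 encodes CD133, a pentaspan protein of membrane protrusions, and KIT the receptor tyrosine kinase for stem cell factor. THY1 (CD90) is a GPI-anchored protein of fibroblasts and neurons. ENG (CD105) is a co-receptor for TGF-beta ligands, MCAM (CD146) and ALCAM (CD166) are immunoglobulin-type adhesion molecules, CD9 is a tetraspanin, and NGFR (CD271, p75NTR) is the low-affinity neurotrophin receptor. RNA does not report the protein at the surface, which was not measured in these libraries.

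Only 4 of the 10 markers, CD24, THY1, ALCAM and NGFR, had enough reads to be tested. The other 6, CD44 among them, were at or near 0 in each of the 18 libraries. ALCAM was lower in the sgXIST9 clone at both oxygen levels. CD24 and NGFR were lowest in the normoxic XIST KD clones and highest in hypoxic sgCtl cells. THY1 passed the thresholds in none of the comparisons.

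The promoters of 3 markers are shown for reference, since these markers differ in pattern: CD24, which was higher in hypoxia in all 3 clones, CD44, which had 1 read in all, and KIT, whose few reads came mostly from hypoxic libraries. Each sequence runs from 250 bases before to 50 bases after a RefSeq start site (GRCh38.p14). Capitals mark ACGTG, the core of the hypoxia response element, or its reverse complement CACGT. The CD24 window is 1 of 3 listed for the gene and lies at chr6:106975578-106975877 on the minus strand, the CD44 window at chr11:35138921-35139220 on the plus strand, and the KIT window at chr4:54657707-54658006 on the plus strand. Each of the 3 CD24 start sites lies inside the span of the counted gene and not at its first base.
CD24: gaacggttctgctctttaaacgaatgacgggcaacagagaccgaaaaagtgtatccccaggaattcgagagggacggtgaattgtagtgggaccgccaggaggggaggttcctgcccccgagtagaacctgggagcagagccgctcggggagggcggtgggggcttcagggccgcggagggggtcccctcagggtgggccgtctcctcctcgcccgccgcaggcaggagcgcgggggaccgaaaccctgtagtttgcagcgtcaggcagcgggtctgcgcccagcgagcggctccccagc
CD44: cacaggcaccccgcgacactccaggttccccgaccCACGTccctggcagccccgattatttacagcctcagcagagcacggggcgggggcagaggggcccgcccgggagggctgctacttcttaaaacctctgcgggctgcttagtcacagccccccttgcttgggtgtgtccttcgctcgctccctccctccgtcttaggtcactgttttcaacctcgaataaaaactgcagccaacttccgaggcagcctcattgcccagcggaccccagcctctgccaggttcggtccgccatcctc
KIT: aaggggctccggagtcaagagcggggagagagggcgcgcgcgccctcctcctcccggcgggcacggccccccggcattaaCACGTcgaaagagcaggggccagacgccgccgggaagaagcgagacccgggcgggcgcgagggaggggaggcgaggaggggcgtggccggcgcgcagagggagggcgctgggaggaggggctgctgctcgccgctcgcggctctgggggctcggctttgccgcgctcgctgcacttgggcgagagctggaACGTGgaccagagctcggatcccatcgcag
The core was found 0 times in the CD24 window, 1 time in that of CD44, from base -215 to -211 relative to the start site, and 2 times in that of KIT, from -170 to -166 and from 20 to 24. Of 35116 promoter windows of the same length, 21.4% held the core on either strand. The 3 windows were rich in CpG, with an observed over expected ratio of 0.767 for CD24, 0.626 for CD44 and 0.952 for KIT, against a median of 0.579 over all windows. A window was found for 8 of the 10 markers, and none for THY1 and NGFR. Markers not shown did not pair the core with hypoxic reads. ENG had 3, 2 and 2 reads in hypoxic sgCtl, sgXIST7 and sgXIST9, against 0, 1 and 0 in normoxia. Its window held the core 0 times. PROM1 had 1, 2 and 3 reads in hypoxia against 1, 1 and 3 in normoxia. It held the core from -77 to -73 and from -130 to -126, in separate windows. A link between the core and hypoxia was not tested, and a match in these letters is not evidence of a bound site.

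Total counts per library ranged from 11794375 to 24906936, with a median of 17629433.5. XIST, the targeted gene, had between 4213 and 11209 reads in normoxic sgCtl libraries, between 1 and 5 in normoxic sgXIST7 and between 650 and 1009 in normoxic sgXIST9, and the knockdown was called in both clones (log2 fold change -11.52, SE 0.73, and -3.41, SE 0.44; adjusted p = 6.32e-09 and 1.91e-05). The replicates labelled 3 in hypoxia were the farthest from their group in sgCtl and sgXIST9, and in sgXIST7 about as far as replicate 1 (SD 0.374 and 0.365): over 10711 well-counted genes, the SD of their log2 difference from the other libraries of their group was between 0.374 and 0.586, against 0.201 to 0.424 in the other hypoxic libraries and 0.157 to 0.346 in normoxia. They were also the least deeply sequenced library of each hypoxic group. In these 3 libraries CD24 and THY1 were lowest of their group in all 3 clones and NGFR in sgCtl and sgXIST9, whereas ALCAM was not lowest in any. The calls in hypoxia were also made without these 3 libraries. This takes out the lowest CD24 and THY1 values of each hypoxic group, and the lowest NGFR values of hypoxic sgCtl and sgXIST9. Calls that these markers gain by the omission follow from values already seen and are not support for a difference. Over the hypoxia check genes, however, these libraries were lowest of their group in only 5 of 24 gene-by-clone values. CA9 there was 594%, 191% and 209% of the mean of replicates 1 and 2 in sgCtl, sgXIST7 and sgXIST9, and VEGFA 162%, 144% and 203%. EGLN3 was lowest there in every clone. Leaving these libraries out thus also removes the highest CA9 and VEGFA values of each clone.

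Markers of the labelled cell type were partly missing. Of 12 genes of ovarian carcinoma epithelium, 4 (PAX8, EPCAM, KRT8 and KRT18) were above 3 reads in every library. KRT7, CDH1, CLDN3 and FOLR1 did not pass 3 reads in any library, and MUC16, which encodes the CA125 antigen, did so in 1, with 4 reads. EPCAM ranged from 1787 to 5594 reads and KRT18 from 1461 to 5542. COL3A1, a fibrillar collagen gene of mesenchymal cells, ranged from 5639 to 24338 reads, and VIM, the mesenchymal intermediate filament vimentin, from 41193 to 152832, while the other fibroblast markers COL1A1, DCN, LUM and PDGFRB had medians of 41, 1, 1 and 1. Of the 5 endothelial markers, none had a median above 3, and the leukocyte genes PTPRC and CD3E had at most 1 read in a library. RNA of E-cadherin, cytokeratin 7 and CA125, which are typical of this epithelium, was thus at or near 0 at this depth, and the markers go only in part with the labelled cell type.

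**Figure D1:**
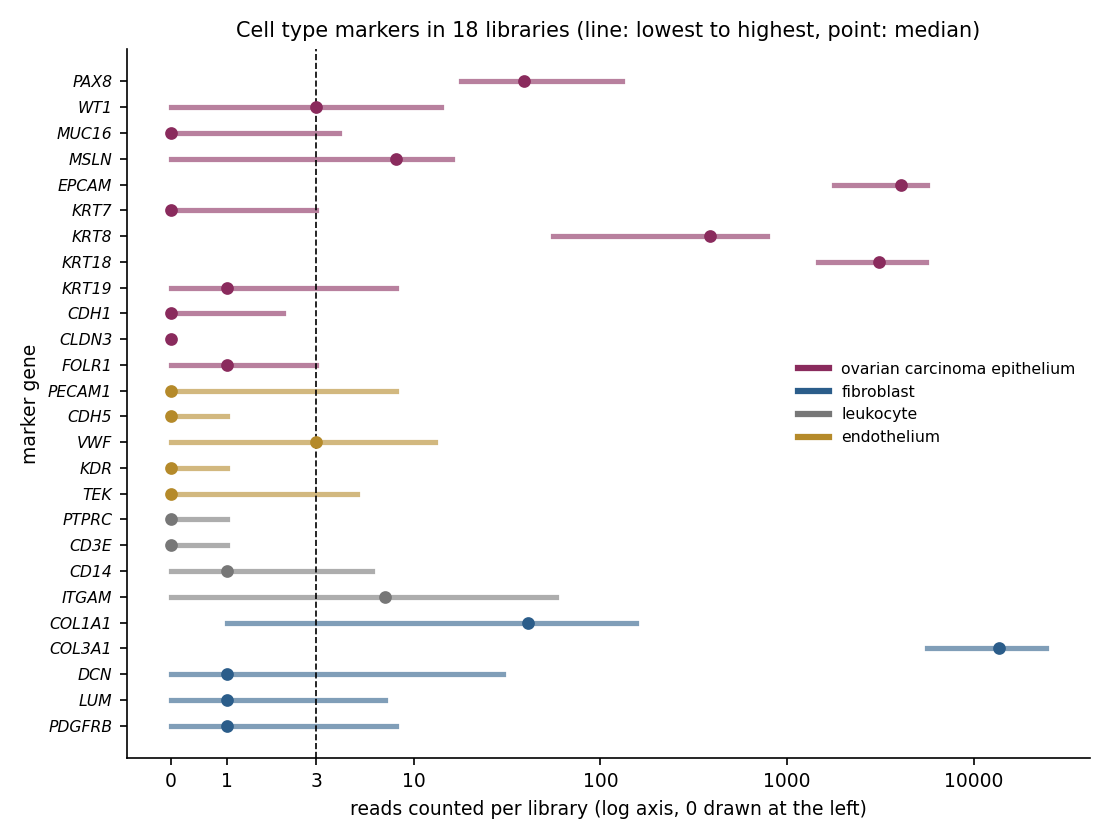
Reads counted for 26 cell type markers in the 18 libraries, on a log axis, with a line from the lowest to the highest library and a point at the median; the dashed line is at 3 reads. EPCAM, KRT18 and COL3A1 sit above 1000 reads in every library, while KRT7, CDH1, CLDN3 and FOLR1 stay at or under the line.

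CD44 was the most weakly counted of the 10 markers. A single read fell on it in 1 normoxic sgCtl library, and the other 17 libraries had 0. Over all libraries that is 1 of 329953639 counts, with a 95% Poisson upper limit of 5.57 reads, or 0.0169 reads per 1000000 counted (CPM). The gene's exons span 6376 bases at hg38 chromosome 11, 35139171 to 35232402, and every 50-base window of them occurs once in the genome. ALCAM, whose exons add up to a similar 6360 bases, had 20648 reads in the same libraries. A CD44 high state was not detectable in the RNA of any clone at either oxygen level. At the level of surface protein, the study reported by flow cytometry that XIST KD enriched CD44 high and CD24 low OVCAR3-KRAB cells. That protein result and these RNA counts are different measures, and the gap between them was not tested.

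PROM1, ENG, MCAM and CD9 did not pass 3 reads in any library. PROM1 had 11 reads over the 18 libraries and at most 2 in one, MCAM 12 and at most 2, ENG 8 and at most 2, and CD9 5 and at most 1. Their upper limits over all libraries were 0.0597 CPM for PROM1, 0.0635 for MCAM, 0.0478 for ENG and 0.0354 for CD9. For ENG, 3.6% of exon bases are shared with a gene on the opposite strand, LOC102723566, which had 17 to 83 reads per library; ENG itself stayed near 0, and how the counting treated strand was not stated. Unique 50-base windows made up 95.3% of PROM1, 97.7% of MCAM and 100% of ENG and CD9.

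KIT was the only one of the 6 with a library above 3 reads. Its reads numbered 4, 3 and 0 in hypoxic sgCtl, 3, 6 and 0 in hypoxic sgXIST9, 1, 0 and 0 in hypoxic sgXIST7, and 2, 0 and 0 in normoxic sgXIST9. The normoxic sgCtl and sgXIST7 libraries had 0. Of the 19 reads, 17 thus came from hypoxic libraries, all of them from replicates 1 and 2. When every gene with a read was kept in the test, the lowest adjusted p-value of KIT in the 11 comparisons was 0.0729, that of MCAM 0.0792, and those of the other 4 between 0.213 and 0.699.

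Absence of this extent was not specific to the markers. Among 18871 listed genes with a protein-coding RefSeq entry, 25.2% had no library above 3 reads, against 5 of the 10 markers, and 33.6% failed the filter for testing, against 6 of the 10. Having at most 1 read over all 18 libraries, as CD44 did, was true of 14.9% of these genes.

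**Figure D2:**
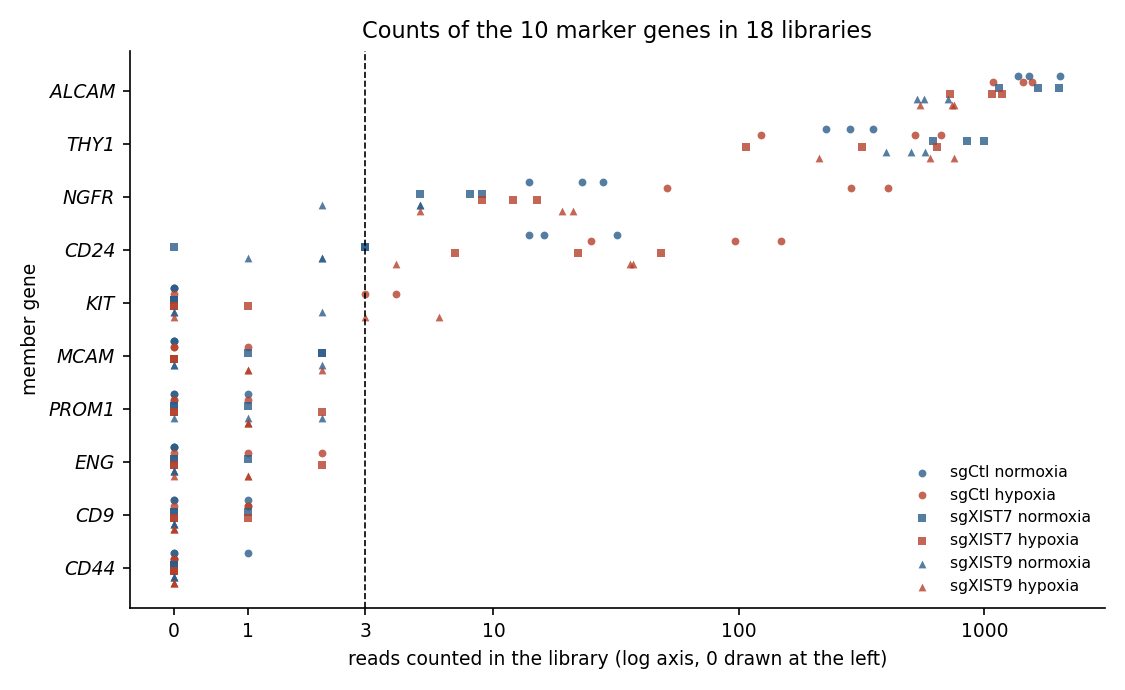
Reads counted for each of the 10 markers in each of the 18 libraries, on a log axis, with color for oxygen and symbol for clone; the dashed line is at 3 reads. ALCAM and THY1 lie above 100 reads in every library, NGFR spreads from 2 to 405 and CD24 from 0 to 148, and the 6 genes at the bottom hold 6 reads or fewer.

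Levels were compared between genes per kilobase of exon (RPKM, from CPM scaled with TMM factors). Averaged over the libraries, ALCAM stood at 10.3 RPKM, at the 73.2 percentile of protein-coding genes, THY1 at 4.45 (58.5), NGFR at 0.883 (44.2) and CD24 at 0.485 (41.1). ALCAM exceeded THY1 without overlap in sgCtl and sgXIST7 cells, with 17.3 ± 3.97 against 3.34 ± 0.232 RPKM in normoxic sgCtl (SD, n = 3). In the sgXIST9 clone the pair overlapped, at 4.86 ± 0.129 and 4.47 ± 0.312 RPKM in normoxia (SD, n = 3). CD24 and NGFR had near-equal levels in normoxic sgCtl, at 0.421 ± 0.139 and 0.414 ± 0.084 RPKM (SD, n = 3). The CD24 level is less certain, because 54.4% of its 50-base exon windows occur once in the genome, against 100% for NGFR.

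The first question was whether XIST KD changed the markers in normoxia. A call required an adjusted p-value below 0.01 together with a log2 fold change beyond 1 in size. Of the 4 tested markers, 1 was called in sgXIST7 (CD24) and 3 in sgXIST9 (CD24, NGFR and ALCAM), all of them lower than in sgCtl, beside 7.76% and 7.7% of the 14938 genes tested. Because the 2 clones were compared with the same 3 sgCtl libraries, their results are not independent of each other. In bulk RNA, fewer cells that express a marker and less RNA in each cell cannot be told apart.

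CD24 had 16, 14 and 32 reads in the normoxic sgCtl libraries. It had 3, 3 and 0 in sgXIST7 and 2, 2 and 1 in sgXIST9. The groups did not overlap, and the KD libraries were all at or under the limit of 3 reads. At 1.33 ± 0.438 CPM in sgCtl (SD, n = 3), CD24 was at least 9.35-fold higher than in sgXIST7 and at least 8.52-fold higher than in sgXIST9, taking the KD libraries at that limit. The fitted log2 fold changes were -3.74 (SE 0.84, adjusted p = 0.00328) and -3.87 (SE 0.86, adjusted p = 0.00341), which depend on the prior count at so few reads. CD24 passed the filter through sgCtl and hypoxic libraries, where it was higher, and not through the normoxic KD libraries. The call was lost in sgXIST7 when sgCtl replicate 3 or sgXIST7 replicate 1 or 3 was left out, with values from -4.23 to -3.14 over all single omissions. It was lost in sgXIST9 when sgCtl replicate 3 or any of the sgXIST9 replicates was left out, with values from -4.03 to -3.55. CD24 lies at hg38 chromosome 6, 106969831 to 106976855, and its exons are hard to map: only 54.4% of stretches of 50 bases were unique in the genome, so its counts are uncertain wherever reads with several matches were dropped or shared.

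NGFR had 23, 14 and 28 reads in normoxic sgCtl, 9, 8 and 5 in sgXIST7 and 5, 5 and 2 in sgXIST9. Every KD library was below every sgCtl library. NGFR passed the filter through sgCtl and hypoxic libraries, and not through the normoxic KD libraries. The mean was 1.41 ± 0.286 CPM in sgCtl and 0.35 ± 0.118 in sgXIST7 (SD, n = 3; log2 fold change -2.02, SE 0.58, adjusted p = 0.0177), which was not called. With the replicate number as a block, it was called (log2 fold change -2.11, adjusted p = 0.00536). The block was fitted over all 18 libraries. Same-numbered libraries deviated together in this comparison but not in every pair of groups, so the block is not warranted for the whole fit. In sgXIST9 the mean was 0.202 ± 0.0767 CPM (SD, n = 3) and the difference was called (log2 fold change -2.75, SE 0.63, adjusted p = 0.00427), although not when sgCtl replicate 1 or 3 or any of the normoxic sgXIST9 replicates was left out, where values over all omissions ranged from -2.97 to -2.51. The gene lies at chromosome 17, 49495293 to 49515005, and shares 5.9% of its exon bases with an opposite-strand gene, LOC100288866, that had 0 to 8 reads per library.

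ALCAM was the most abundant marker and the one that separated the clones. It measured 137, 106 and 86.9 CPM in normoxic sgCtl, 87.4, 63.5 and 72.3 in sgXIST7 and 31.6, 30 and 31 in sgXIST9. The sgXIST9 libraries were far below all others, while sgXIST7 overlapped sgCtl by its highest library. ALCAM was 3.56-fold lower in sgXIST9 (log2 fold change -1.83, SE 0.17, adjusted p = 3.37e-07) but missed the thresholds in sgXIST7 (log2 fold change -0.56, SE 0.16, adjusted p = 0.0173). The difference between the 2 KD clones was itself called, with 2.41-fold more in sgXIST7 (log2 fold change 1.27, SE 0.16, adjusted p = 4.49e-05), and ALCAM was the only marker called there, beside 3.4% of all genes tested. The summed level of the 5 fibroblast markers, nearly all COL3A1, was likewise lower, at 583 to 631 CPM in normoxic sgXIST9 against 920 to 969 in sgCtl. The markers did not move together. COL1A1 was called higher in sgXIST9 by edgeR (2.25 against 0.564 CPM, adjusted p = 0.00567), and PDGFRB was higher at few reads. DCN and LUM were lower, also at few reads. The part of these markers in the ALCAM result was not tested.

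THY1 was higher in the normoxic KD clones. It had 19, 17.5 and 20.1 CPM in sgCtl, 43.2, 34.4 and 36.9 in sgXIST7 and 25.5, 26.8 and 23.3 in sgXIST9. Both KD clones lay above sgCtl in every library. The 2.02-fold difference in sgXIST7 was not called (log2 fold change 1.02, SE 0.40, adjusted p = 0.0848), nor was that in sgXIST9 (0.42, SE 0.40, adjusted p = 0.523). The fit shared 1 spread over all 6 groups, in which THY1 varied most in hypoxia. With the 2 groups compared fitted alone, the sgXIST7 difference was called (log2 fold change 1.03, adjusted p = 0.000198), and it was also called without replicate 3 of the hypoxic groups (1.01, adjusted p = 0.00117).

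**Figure D3:**
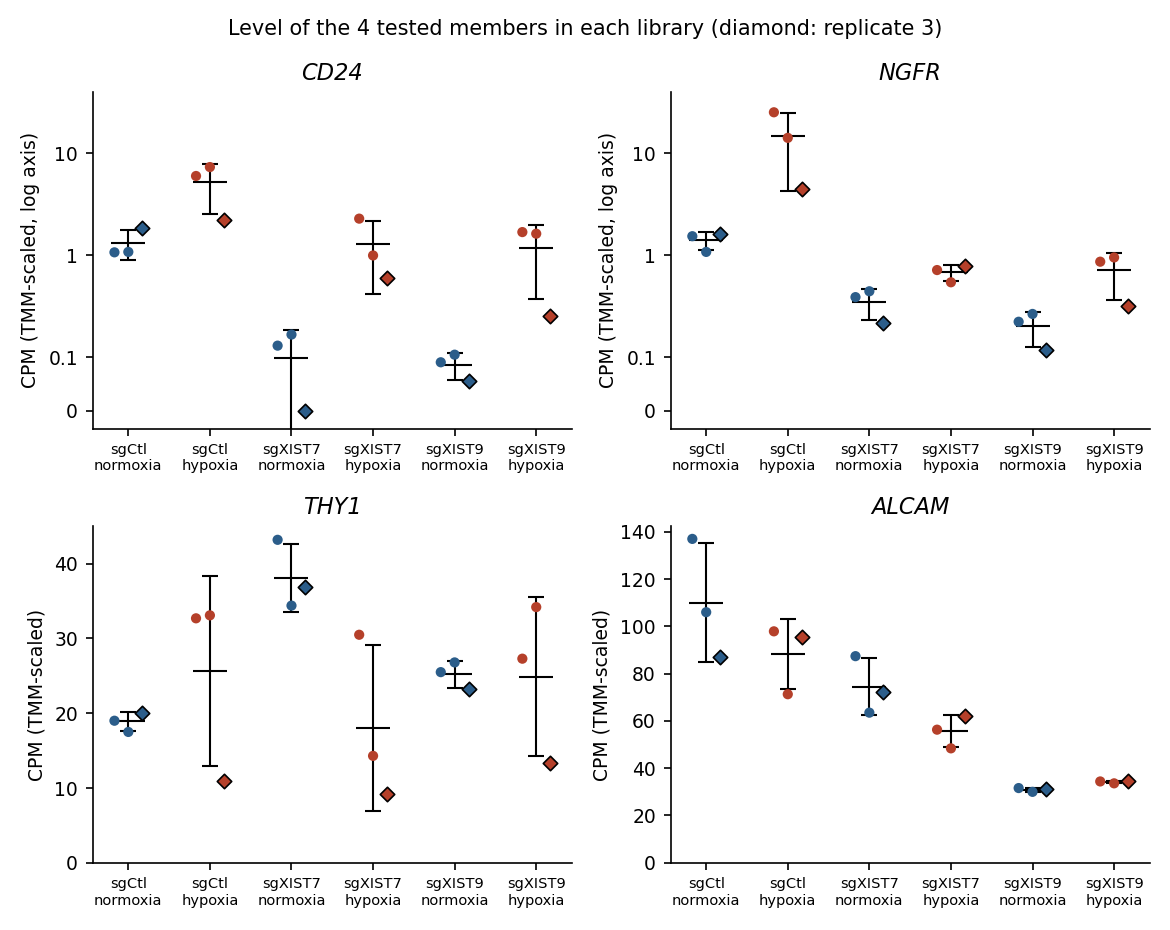
Level of CD24, NGFR, THY1 and ALCAM in each library, in TMM-scaled CPM, with bars for mean ± SD (n = 3) and diamonds for replicate 3; CD24 and NGFR are on log axes with 0 drawn at the bottom. Hypoxic sgCtl libraries are highest for NGFR, the sgXIST9 libraries are lowest for ALCAM, and hypoxic replicate 3 is lowest of its group for CD24 and THY1 in all 3 clones.

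The next comparison was that of hypoxia with normoxia within each clone. Of the 8 hypoxia check genes, 6 were called higher in sgCtl and 7 in each KD clone. CD24 and NGFR were called in sgCtl, and CD24 alone in sgXIST7 and sgXIST9, all of them higher in hypoxia, beside 19.7%, 27.3% and 23.3% of all genes tested. In the KD clones, 1 of 4 tested markers is near that background.

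NGFR showed the widest range in hypoxia. The hypoxic sgCtl libraries had 405, 286 and 51 reads, or 25.3, 14.2 and 4.52 CPM. All 3 lay above the normoxic libraries, with the third far below the other pair. The mean was 10.4-fold higher than in normoxia (log2 fold change 3.37, SE 0.48, adjusted p = 2.19e-05), and the value was 3.79 without replicate 3 of the hypoxic groups and 2.74 without hypoxic sgCtl replicate 1, the highest library. In sgXIST7, NGFR had 15, 12 and 9 reads in hypoxia, and the mean of 0.679 ± 0.121 CPM (SD, n = 3) was 1.94-fold above normoxia (log2 fold change 0.94, SE 0.62, adjusted p = 0.203), or 0.87 without the hypoxic replicates 3. In sgXIST9, it had 19, 21 and 5 reads and was 3.52-fold above normoxia (log2 fold change 1.80, SE 0.66, adjusted p = 0.0288), which was not called. At the same thresholds it was called when hypoxic sgCtl replicate 3 was left out, alone or with the other hypoxic replicates 3 (log2 fold change 2.12 in the latter, adjusted p = 0.000482). With only the sgXIST9 groups fitted, NGFR failed the filter.

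CD24 rose in hypoxia in each clone from different starting levels. Hypoxic libraries had 96, 148 and 25 reads in sgCtl, 48, 22 and 7 in sgXIST7 and 37, 36 and 4 in sgXIST9. In CPM, the third replicate was 33.2%, 36.7% and 15.2% of the mean of the other pair in the 3 clones. None of the hypoxic groups overlapped its normoxic group. In sgCtl the mean rose 3.9-fold, to 5.19 ± 2.66 CPM (SD, n = 3; log2 fold change 1.96, SE 0.57, adjusted p = 0.00904), close to the threshold: the call was lost in 12 of the 18 single omissions, namely each normoxic sgCtl and sgXIST9 replicate, hypoxic sgCtl replicates 1 and 2, normoxic sgXIST7 replicates 1 and 2, hypoxic sgXIST7 replicate 2 and hypoxic sgXIST9 replicate 1, with values from 1.63 to 2.31. The rise was at least 9.12-fold in sgXIST7 and at least 7.63-fold in sgXIST9 against the limit of 3 reads (fitted log2 fold change 3.74 in both, SE 0.83 and 0.86, adjusted p = 0.000933 and 0.00142). These calls rest on a gene that passed the filter through the groups where it was higher. With only the sgXIST9 groups fitted, CD24 failed the filter and could not be tested. Without the hypoxic replicates 3 the 3 fitted values were 2.31, 4.04 and 4.18, all called. In sgXIST7 the value was 3.05 without hypoxic sgXIST7 replicate 1 and 3.13 without normoxic sgXIST7 replicate 3.

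THY1 and ALCAM were not called in hypoxia in any clone. Hypoxic THY1 measured 32.7, 33.1 and 10.9 CPM in sgCtl, 30.5, 14.3 and 9.24 in sgXIST7 and 27.3, 34.2 and 13.4 in sgXIST9. The third replicate was the lowest in each clone, and without it THY1 in sgCtl was above normoxia by 0.81 on the log2 scale (adjusted p = 0.00567), short of the fold threshold. In sgXIST7 every hypoxic library was below every normoxic one (log2 fold change -1.06, SE 0.40, adjusted p = 0.0299), and the difference was called when hypoxic sgXIST7 replicate 1 was left out, where it was -1.67. ALCAM measured 97.9, 71.3 and 95.6 CPM in hypoxic sgCtl, 56.3, 48.4 and 62.2 in sgXIST7 and 34.4, 33.6 and 34.6 in sgXIST9, with log2 fold changes against normoxia of -0.32, -0.42 and 0.15 (SE 0.16 in each), and of -0.38, -0.50 and 0.14 without the hypoxic replicates 3.

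The KD clones were then compared with sgCtl within hypoxia. Of the 4 tested markers, 1 was called in sgXIST7 (NGFR) and 2 in sgXIST9 (NGFR and ALCAM), all lower than in sgCtl, beside 14% and 9.53% of all genes tested. NGFR was 21.6-fold lower in sgXIST7 (log2 fold change -4.45, SE 0.52, adjusted p = 4.79e-06) and 20.6-fold lower in sgXIST9 (log2 fold change -4.32, SE 0.51, adjusted p = 6.43e-06), with no overlap in either. These values were -4.95 and -4.43 without the hypoxic replicates 3, and -3.81 and -3.69 without hypoxic sgCtl replicate 1. ALCAM was 2.58-fold lower in sgXIST9 (log2 fold change -1.37, SE 0.16, adjusted p = 8.09e-06) and 1.59-fold lower in sgXIST7, where it passed the p-value but not the fold threshold (log2 fold change -0.67, SE 0.16, adjusted p = 0.00346). Without the hypoxic replicates 3 these ALCAM values were -1.32 and -0.69. Between the clones, 0 of the 4 markers were called in hypoxia beside 4.46% of all genes, and ALCAM was 1.63-fold higher in sgXIST7 (log2 fold change 0.70, SE 0.16, adjusted p = 0.00663).

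CD24 was lower in both hypoxic KD clones without passing the thresholds. It was 4-fold lower in sgXIST7 (log2 fold change -1.96, SE 0.57, adjusted p = 0.0106), where the highest KD library overlapped the lowest sgCtl library, and 4.36-fold lower in sgXIST9 without overlap (log2 fold change -2.10, SE 0.57), where the adjusted p of 0.01 was not under the threshold. With the replicate number as a block over all 18 libraries, the sgXIST9 difference was called (log2 fold change -2.13, adjusted p = 0.00279). Same-numbered libraries deviated together in this comparison but not in every pair of groups. Both were called without the hypoxic replicates 3 (-2.02 and -2.01, adjusted p = 0.000515 and 0.000781) and with the Wald test of DESeq2 (-1.99 and -2.15, adjusted p = 0.00613 and 0.00377). The replicates left out held the lowest CD24 value of each hypoxic group. THY1 differed from sgCtl by -0.50 in sgXIST7 and -0.04 in sgXIST9 on the log2 scale (SE 0.40 in both), within the spread of the hypoxic libraries.

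Leukocyte markers were highest in the group where CD24 and NGFR were highest. The summed level of the 5 genes was 1.56 to 3.18 CPM in hypoxic sgCtl, and at most 1.77 in any other group, with ITGAM as the main contributor and PTPRC and CD3E at 0 or 1 read; their part in the CD24 and NGFR results was not tested. Endothelial cells, another source of MCAM and ENG, left at most 0.893 CPM over 5 markers.

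**Figure D4:**
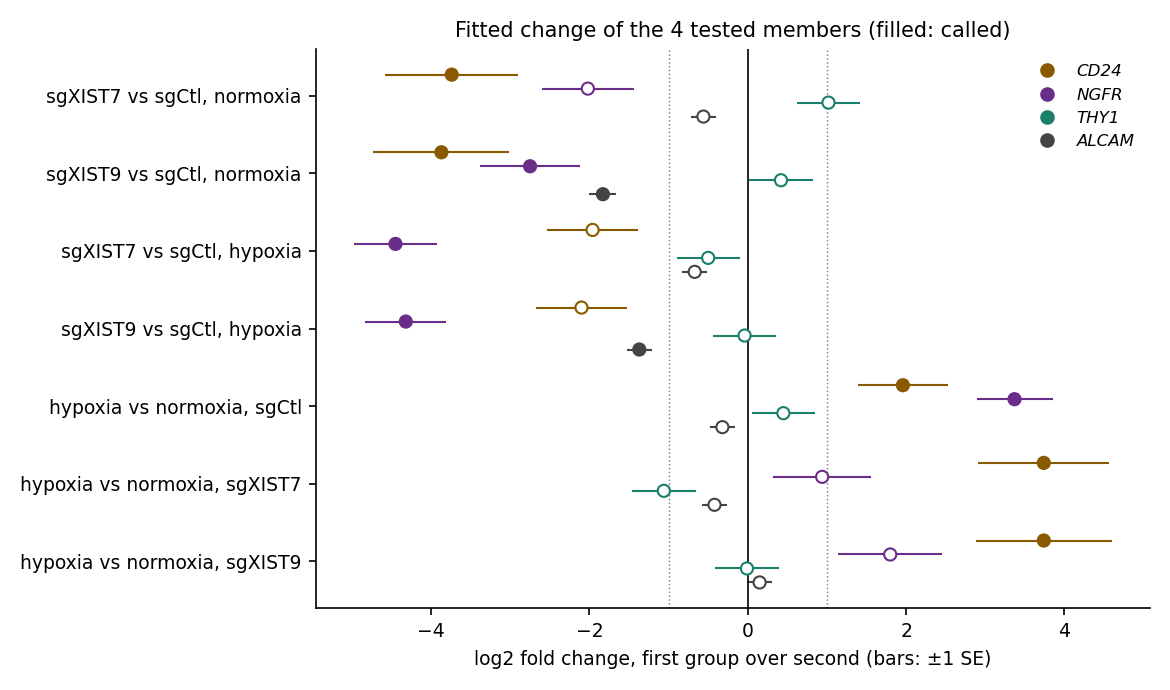
Fitted log2 fold change of the 4 tested markers in 7 comparisons, with bars of ±1 SE and filled points for calls; dotted lines mark 1 and -1. CD24 and NGFR lie left of 0 in all 4 KD comparisons and right of 0 in all 3 hypoxia comparisons, ALCAM is filled only for sgXIST9 against sgCtl, and THY1 is open throughout.

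Whether hypoxia acted differently on the markers in KD and control cells was tested by the interaction. None of the 4 markers was called for sgXIST7 or sgXIST9 by edgeR, beside 1.52% and 1.01% of all genes. NGFR gave the largest value, with a response lower by 2.43 on the log2 scale in sgXIST7 (interaction -2.43, SE 0.80, unadjusted p = 0.00717, adjusted p = 0.063 from edgeR), and -1.56 in sgXIST9 (SE 0.88, adjusted p = 0.326). THY1 gave -1.52 (SE 0.57, adjusted p = 0.0974) in sgXIST7. At an unadjusted p under 0.05, NGFR and THY1 passed in sgXIST7 and no marker in sgXIST9, and DESeq2 called 0 in both. The sgXIST7 results turned on the hypoxic replicates 3: without them NGFR was -2.92 (adjusted p = 0.000691) and THY1 -1.56 (adjusted p = 0.00201), and both were called. Those libraries held the lowest NGFR value of hypoxic sgCtl and the lowest THY1 value of each hypoxic group. The gained calls are therefore not support for an interaction. The CD24 interaction was 1.78 in both clones (SE 1.04 and 1.07, adjusted p = 0.282 and 0.364). A larger drop of NGFR under XIST KD in hypoxia than in normoxia is therefore not shown over all 18 libraries.

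Across the 18 libraries CD24 and NGFR had similar patterns (Pearson r = 0.88 of log2 CPM), while THY1 was unrelated to either (r = -0.00 with CD24 and 0.04 with NGFR). The genes most like NGFR among 10711 well-counted ones were MFSD9, SGK1 and ZNF805 (r = 0.96, 0.96 and 0.95), and those most like CD24 were ACVR2A, CDC42EP3 and NPTX1 (r = 0.97, 0.96 and 0.96). FAT1 and ARG2 were among the 3 genes most like ALCAM (r = 0.94 and 0.91), and C1QL4 among the 3 most like THY1 (r = 0.90). These values describe libraries that share groups and depth.

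Ligands and partners of the markers were listed as 34 genes, of which 17 were tested. Ligands were often missing: GDF2 and BMP10 had no read, and the hyaluronan synthases HAS1 and HAS2 had at most 1 and 2 reads, while HAS3 ranged from 3 to 261. In normoxia 2 of the 17 were called in sgXIST7, both higher, and 1 in sgXIST9, lower, with list medians of 0.14 and -0.23 beside -0.01 and -0.02 over all genes. Of all genes tested, 7.76% and 7.7% were called. In hypoxia against normoxia, 4 were higher and 2 lower in sgCtl, 4 and 3 in sgXIST7, and 5 and 1 in sgXIST9. The shares over all genes tested were 19.7%, 27.3% and 23.3%. The higher calls in each clone included ITGB3 and NTRK2. These had at most 6 and 4 reads in a normoxic library and passed the filter through hypoxic libraries. HMMR, another hyaluronan receptor linked to mitosis, fell in all 3 clones by 2.06, 1.15 and 2.04 on the log2 scale, and IGSF8, a partner of the tetraspanins CD9 and CD81, rose by 1.45, 2.02 and 1.82. SORT1, the NGFR co-receptor sortilin, was 2.25-fold higher in normoxic sgXIST7 (log2 fold change 1.17, adjusted p = 5.82e-05) and fell by 1.56 on the log2 scale in hypoxia in that clone. CD63, another tetraspanin, was called in hypoxic sgXIST7 (2.13-fold higher). It was 1.88-fold and 1.8-fold higher in normoxic sgXIST7 and sgXIST9 and 1.81-fold higher in hypoxic sgXIST9, below the fold threshold (adjusted p = 1.76e-05, 3.51e-05 and 2.97e-05). ITGAV, which pairs with integrin beta 3 at THY1, was 2.22-fold higher in hypoxic sgXIST7.

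A pair of partners was singled out after their values were seen. TGFBR2, the type II TGF-beta receptor that endoglin joins, had 277 to 321 reads in normoxic sgXIST7 libraries, 6 to 10 in sgCtl and 0 or 1 in sgXIST9. It passed the filter on low counts through sgXIST7, and the sgXIST9 call, the 1 of the list in normoxia, rests on these few reads. It was 25.7-fold higher in sgXIST7 (log2 fold change 4.71, SE 0.42, adjusted p = 3.09e-07) and at least 3.53-fold lower in sgXIST9. KITLG, which encodes the KIT ligand, rose 5.23-fold in hypoxia in sgCtl (log2 fold change 2.39, SE 0.40, adjusted p = 0.000116), with 38 to 262 reads against 21 to 39, and its response differed in sgXIST7 (interaction -2.73, SE 0.56, adjusted p = 0.00848). ENG and KIT, the markers these genes pair with, stayed at 6 reads or fewer per library.

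Of 15 other surface proteins used to mark stem cells, 11 were tested. In normoxia 3 were called lower in each KD clone and 0 higher, and in hypoxia 4 were lower and 1 higher in each, with medians of -0.41, 0.16, -0.39 and -0.46 beside -0.01, -0.02, -0.02 and -0.01 over all genes. Of all genes tested, 7.76%, 7.7%, 14% and 9.53% were called in these comparisons. Hypoxia called 3 higher and 1 lower in sgCtl, 5 and 1 in sgXIST7, and 3 and 0 in sgXIST9. The shares over all genes tested were 19.7%, 27.3% and 23.3%. ITGA6, the laminin receptor subunit CD49f, was called lower in sgXIST9 in normoxia (2.25-fold) and in both clones in hypoxia (2.46-fold in sgXIST7 and 2.07-fold in sgXIST9). CD55, a complement regulator, rose in hypoxia in all 3 clones, by 2.98-fold, 2.03-fold and 2.48-fold. ITGB1, the integrin beta 1 subunit, rose 2.21-fold in hypoxic sgXIST7, a call lost without the hypoxic replicates 3 (log2 fold change 0.94). It was the only call lost of the 54 that both lists held in the 5 comparisons with hypoxic libraries when these replicates were left out, while 8 calls were gained and 0 changed direction. PROCR and NCAM1, named after their values were seen, were lower in all 4 KD comparisons: PROCR had 147 to 220 reads in normoxic sgCtl, 25 to 36 in sgXIST7 and 5 to 8 in sgXIST9, and NCAM1 56 to 73, 15 to 21 and 0 to 2. CXCR4, named likewise, had 0 reads in the 6 normoxic KD libraries, 1 to 4 in normoxic sgCtl, and 25 or more in each hypoxic library. It passed the filter through the hypoxic libraries, and its call in normoxic sgXIST7, among the 3 counted above, rests on 0 reads against 1 to 4, too few for a fold. L1CAM, named likewise, was the 1 called higher in each hypoxic KD clone. Its hypoxia call in sgCtl rests on few reads, 2 to 27 against 0 to 4 in normoxia. EPCAM and CD47 were called in none of the 7 comparisons, and PDPN had no read.

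**Figure D5:**
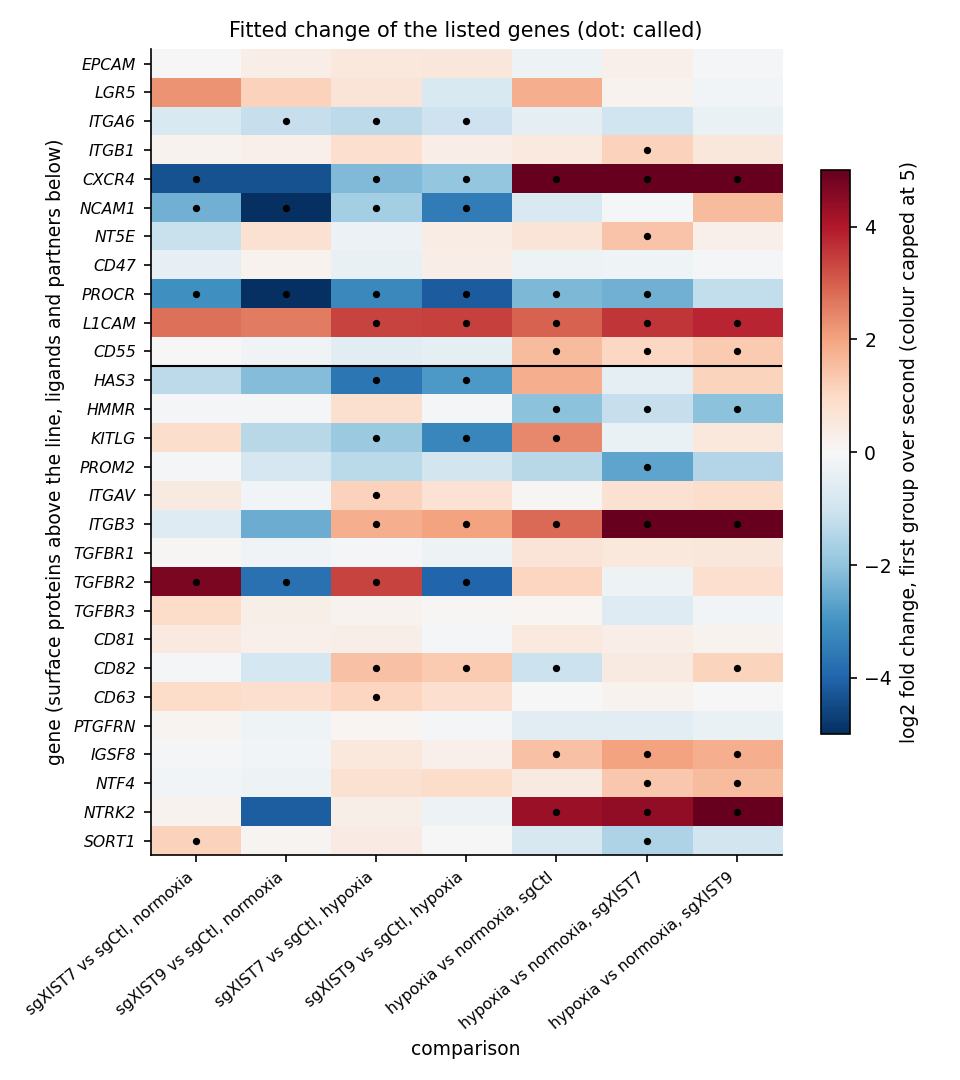
Fitted log2 fold change of the 11 tested surface proteins and the 17 tested ligands and partners in 7 comparisons, in color (capped at 5), with a dot for each call. PROCR and NCAM1 carry dots in all 4 KD columns, TGFBR2 is red in both sgXIST7 columns and blue in both sgXIST9 columns, and IGSF8, ITGB3, NTRK2, L1CAM, CXCR4 and CD55 are red with dots in all 3 hypoxia columns.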

How the data were processed

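RNA-seq of OVCAR3-KRAB clonal cells (18 libraries, 6 groups of 3, grouped by the labels) was used. The authors' libraries were stranded and depleted of ribosomal RNA; Trimmomatic, hisat2 (hg38) and featureCounts gave the read counts per gene. The strand setting and the annotation release are not given in the sources used here. The deposited values are these counts, whole and not normalized, for 28277 genes after 2 broken lines were left out.

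Counts were tested with edgeR 4.0.16 (R 4.3.3): TMM scaling, filterByExpr (minimum count 10, minimum total 15), robust glmQLFit of 6 groups in 1 fit, glmQLFTest and Benjamini-Hochberg adjustment over the 14938 genes kept. The calling thresholds were 0.01 on the adjusted p-value and 1 on the size of the log2 fold change; SEs came from the fold change and its F statistic. Prior count was 0.125. A detection limit of 3 reads per library was used; this and the 95% Poisson limits cover counting error only. The scripts were checked on simulated data. Replicates were biological according to the study, and nothing names separate thaws or passages.

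The 10 members and the gene lists were chosen with earlier results of these data known. All members are named; from each list, up to 8 called genes with at least 100 reads on average are named by size of change, and other names are said to be chosen after their values were seen. Likeness was Pearson r over 18 libraries, with the 3 highest genes named; a few genes are not reported here. Exon windows of 50 bases were searched on both strands of the main hg38 chromosomes. Replicate numbers were taken to pair libraries where each same-numbered pair deviated together (r above 0.1): sgCtl with sgXIST7 in normoxia (0.325, 0.610 and 0.393), sgCtl with sgXIST9 in hypoxia (0.355, 0.618 and 0.635) and sgCtl between oxygen levels (0.212, 0.103 and 0.140). Alternatives were DESeq2 1.42.0, other scalings and filters, fits of the compared groups only, a replicate block, other thresholds and omitted libraries. The replicate block was fitted over all 18 libraries, also where numbers did not pair the groups.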

Additional observations from a re-analysis of the deposited data

Results flagged for a closer look

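Each result here is a difference between the KD clones, or between responses to hypoxia, that was itself called among the markers, the listed genes and the hypoxia check genes. Among the 10 markers there was 1: ALCAM was higher in normoxic sgXIST7 than in normoxic sgXIST9 by 1.27 on the log2 scale.

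Among the ligands and partners, TGFBR2 differed between sgXIST7 and sgXIST9 by 8.44 on the log2 scale in normoxia and by 7.34 in hypoxia. With sgXIST9 libraries at or under 3 reads these are at least 90.9-fold and at least 77.3-fold differences. KITLG was higher in normoxic sgXIST7 than in sgXIST9 by 2.25, and its response to hypoxia in sgXIST7 differed from that in sgCtl by -2.73. SORT1 was higher in normoxic sgXIST7 by 1.03, and the response of CD82 to hypoxia in sgXIST9 exceeded that in sgCtl by 2.21.

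Among the other surface proteins, NCAM1 and PROCR were higher in normoxic sgXIST7 than in sgXIST9 by 3.47 and 2.12, and NT5E differed by -1.87. Among the hypoxia check genes, NDRG1 was higher in normoxic sgXIST7 by 1.46, and the response of ADM exceeded that in sgCtl by 4.36 in sgXIST7 and 3.76 in sgXIST9. ADM stood at 287 CPM in normoxic sgCtl, against 8.14 and 7 in the normoxic KD clones.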

How the results depend on the processing

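CD24 and NGFR were counted with few reads, and the 6 undetected markers can be read only down to their limits. The calls of ALCAM changed in no refit; without a fold minimum, ALCAM was also called in hypoxic sgXIST7 against sgCtl and between the hypoxic KD clones. Of 1140 refitted log2 fold changes of the tested markers, 1065 kept their direction and their call; a cause was not tested for the others beyond what each setting leaves out. CD24 and NGFR could not be tested in 2 comparisons of sgXIST9 with only the groups compared, since they failed the filter there.

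Markers called in normoxic sgXIST7 numbered 2 with DESeq2, at an adjusted p under 0.05 and with the replicate block, and 3 with only the groups compared and without the hypoxic replicates 3. In hypoxic sgXIST7 they numbered 2 with DESeq2, under 0.05, without a fold minimum, with the block and without the hypoxic replicates 3. For hypoxia against normoxia, 1 was called in sgCtl without a filter and with only the groups compared, 2 in sgXIST7 under 0.05 and with the block (THY1, -1.18), and in sgXIST9 2 under 0.05 and without the hypoxic replicates 3, and 0 with only the groups compared. Between the hypoxic KD clones 1 was called without a fold minimum, and 2 in the sgXIST7 interaction without the hypoxic replicates 3. The block changed no other count by over 1.5 times except the sgXIST7 interaction, with 371 genes. Numbers did not pair the libraries of hypoxic sgXIST7 with sgCtl or with normoxic sgXIST7.

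Genes called in the sgXIST7 and sgXIST9 interactions (227 and 151) numbered 549 and 371 with DESeq2, 706 and 468 under 0.05, 79 and 90 with only the groups compared, and 1288 and 822 without the hypoxic replicates 3. With only the groups compared, 1113 and 641 were called in hypoxic sgXIST7 and sgXIST9 against sgCtl and 323 between them. Without a fold minimum the counts were 2015 and 1959 in normoxia, 4129 and 2673 in hypoxia, 5611, 6981 and 6288 for hypoxia in sgCtl, sgXIST7 and sgXIST9, and 1259 between the hypoxic KD clones.

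With a single library left out, genes called ranged from 434 to 973 between the hypoxic KD clones, from 84 to 1198 in the sgXIST7 interaction and from 57 to 725 in that of sgXIST9. Markers called ranged from 0 to 2 in normoxic sgXIST7, 1 to 3 in normoxic sgXIST9, 1 to 2 in hypoxic sgXIST7 and for hypoxia in each clone, and 0 to 1 in the sgXIST7 interaction. Only differences near 0 changed sign: CD24 between the KD clones (-0.36 to 0.73 in normoxia, -0.56 to 0.44 in hypoxia, and -0.01 without the hypoxic replicates 3), THY1 in hypoxic sgXIST9 against sgCtl (-0.4 to 0.25), THY1 for hypoxia in sgXIST9 (-0.3 to 0.29, and 0.08 with upper-quartile scaling, 0.02 at a mean CPM of at least 1 and 0.29 without the hypoxic replicates 3), the ALCAM interaction in sgXIST7 (-0.29 to 0.04) and NGFR between the hypoxic KD clones (-0.44 to 0.12).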
